A study of Rattus norvegicus with 8 samples.

Results

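Ahi1 encodes jouberin, a scaffold protein of the transition zone at the base of the primary cilium, and loss of the human gene causes Joubert syndrome, a malformation of the hindbrain. Hap1 encodes huntingtin-associated protein 1, a neuronal adaptor that links cargo vesicles to kinesin and dynein motors and is rich in the hypothalamus. The 2 proteins bind each other in neurons, and the Hap1 protein stabilises the Ahi1 protein, so the genes are often studied as a pair in hypothalamic control of feeding.

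The pair was taken by gene symbol from a table of polyadenylation sites, the positions at which messenger RNAs end. Of the 73922 sites listed, 29 carried the symbol of either gene, 20 of Ahi1 and 9 of Hap1. The pair was chosen by symbol, as feeding-linked partners, with the counts of these libraries and earlier comparisons between their groups in view. The differences between groups given here are therefore descriptions, and the p-values beside them are no independent evidence.

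Whole transcriptome termini site sequencing (WTTS-seq), which counts the 3′ ends of polyadenylated RNA, was applied to hypothalami from Long-Evans rats, all adult and male. Control animals, numbered 1 to 4, were kept on standard chow with 0.51 kcal/g from fat. The diet-induced obesity (DIO) group, also of 4 and numbered 1 to 4, received a high fat diet with 1.71 kcal/g from fat, and both diets lasted 36 days. No genetic modification is named for either group. Libraries held 1417531 to 1957726 reads, 13341135 in all. The hypothalamic markers fixed for the check summed to 1233 to 1685 CPM (read counts scaled to a common library size) in control and 997 to 1391 in DIO libraries, with 14 of 15 listed in the table. Oligodendrocyte markers reached 12618 to 22776 CPM over both groups, and 4 of 6 anterior pituitary markers summed to 8.85 to 183 CPM, both extremes in the DIO group. These 4 include Pomc, which is also among the hypothalamic markers, and only 1 of them had reads in every library. Their sum is therefore no measure of pituitary tissue alone. Of 3 choroid plexus markers only Ttr was listed, at 98.0 CPM in DIO 4 and 0 to 1.52 CPM in the other 7 libraries. The part of these tissues in the values of Ahi1 and Hap1 was not tested, and in whole tissue fewer cells of a type and less RNA per cell cannot be told apart.

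The start of each gene is shown to give the strand and the region from which its transcripts run towards the sites. The RefSeq sequences cover 250 bases before to 50 bases after the start on build GRCr8, at chr1:17581781-17582080 on the plus strand for Ahi1 and at chr10:85786454-85786753 on the minus strand for Hap1, and are printed 5′ to 3′. Capitals mark the matches to 3 motifs that were picked after the sequences had been read.
Ahi1: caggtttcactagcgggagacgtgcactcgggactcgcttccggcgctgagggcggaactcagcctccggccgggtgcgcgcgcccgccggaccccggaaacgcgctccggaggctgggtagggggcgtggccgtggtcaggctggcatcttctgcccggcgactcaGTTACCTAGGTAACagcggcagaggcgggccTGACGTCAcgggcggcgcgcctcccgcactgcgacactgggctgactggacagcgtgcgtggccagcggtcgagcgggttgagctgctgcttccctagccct
Hap1: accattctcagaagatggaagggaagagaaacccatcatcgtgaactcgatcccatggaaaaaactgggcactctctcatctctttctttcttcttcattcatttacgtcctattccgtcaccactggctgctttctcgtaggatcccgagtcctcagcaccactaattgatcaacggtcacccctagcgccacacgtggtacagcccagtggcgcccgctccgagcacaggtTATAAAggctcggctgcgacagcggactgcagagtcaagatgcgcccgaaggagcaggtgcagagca
The 2 starts differ in make-up. The Ahi1 start was 71% G and C with 36 CpG pairs, and the Hap1 start was 53.7% G and C with 17. Ahi1 held 1 match to GTTNCCNNGGNAAC, the palindromic form of the X-box bound by RFX factors at many ciliary genes, beginning 83 bases before the start. On either strand, 158 of 33469 promoters (0.472%) held such a match, among them those of 1 of the 18 Joubert and transition zone genes that could be looked up. TGACGTCA, the full cyclic AMP response element, began 52 bases before the Ahi1 start and was present in 1.83% of all promoters. The Hap1 start held TATAAA, the core of a TATA box, beginning 17 bases before the annotated start, as did 14.2% of all promoters on either strand. These matches describe the letters in the window and say nothing of factor binding.

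All 20 Ahi1 sites lay on the plus strand of chromosome 1 between 16478118 and 16543081 (Rnor_6.0, as are all site positions), a span of 64964 bases, and are numbered here from 5′ to 3′. Only 4.31% of the 12255 genes had as many listed sites. Reads were gathered at the 5′ end of this span. The first 4 sites, at chr1:16478118-16478481, held 6024 of 10153 Ahi1 reads (59.3%), and the next 4, at chr1:16480987-16481769, held 29.2%. The remaining 12 sites, at chr1:16496455-16543081, held 11.5% together and none of them reached 5% of the reads. Whether a site is exonic or intronic was not established.

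Hap1 had 8 sites on the minus strand of chromosome 10 within 6813 bases, from 88264781 down to 88257969, with 2397 reads in all. The 6 sites at chr10:88257969-88260044 held 77.6% of these reads and the other 2, at chr10:88264032-88264781, held 22.4%. The ninth Hap1 site, at position 88262933, was on the plus strand. It had 0, 5, 0 and 4 reads in control libraries 1 to 4 and 17, 6, 0 and 0 in DIO libraries 1 to 4. No library read it in quantity, and it was kept out of the gene sum.

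For the sum over its sites, Ahi1 measured 737, 1738, 887 and 917 normalised CPM in control libraries 1 to 4 and 457, 1369, 631 and 576 in DIO libraries 1 to 4. The groups overlapped, and in both of them library 2 was far above the others. Taken by number, the DIO library was the lower in 4 of 4 pairs, by 0.34 to 0.69 on the log2 scale. The share of all genes or sites with 4 of 4 pairs in 1 direction is not given here. Such counts, here and below, therefore cannot be set against a background. Marker sums that were also lower in DIO in 4 of 4 pairs were those of the hypothalamus, at 1233, 1312, 1594 and 1685 CPM in control libraries 1 to 4 and 997, 1206, 1391 and 1103 CPM in DIO libraries 1 to 4, and of microglia (2 of 4 markers listed), at 64.7, 92.6, 104 and 72.3 against 24.6, 80.9, 51.5 and 63.3 CPM. Sums of neuronal markers (2042 to 2463 CPM over the 8 libraries), astrocyte markers (1283 to 2353 CPM) and thalamic markers (37.6 to 177 CPM) were lower in some pairs and higher in others. The part of these cells in the Ahi1 difference was not tested. The mean Ahi1 sum was 1070 ± 452 CPM in control and 758 ± 413 CPM in DIO animals (SD, n = 4 each), which placed Ahi1 at rank 119 of 12255 genes by mean CPM.

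Hap1 summed to 118, 99.0, 203 and 334 CPM in control libraries 1 to 4, against 130, 187, 227 and 410 in DIO libraries 1 to 4. Here library 4 was the highest in both groups, the groups overlapped, and the DIO library was the higher in 4 of 4 pairs, by 0.14 to 0.91 on the log2 scale. Its mean was 189 ± 107 CPM in control and 238 ± 121 CPM in DIO animals (SD, n = 4 each), at rank 789. A read marks the 3′ end of a molecule whatever its length, so these levels were not divided by length. The plot of gene sums shows both genes with the lines that join libraries of 1 number.

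**Figure D1:**
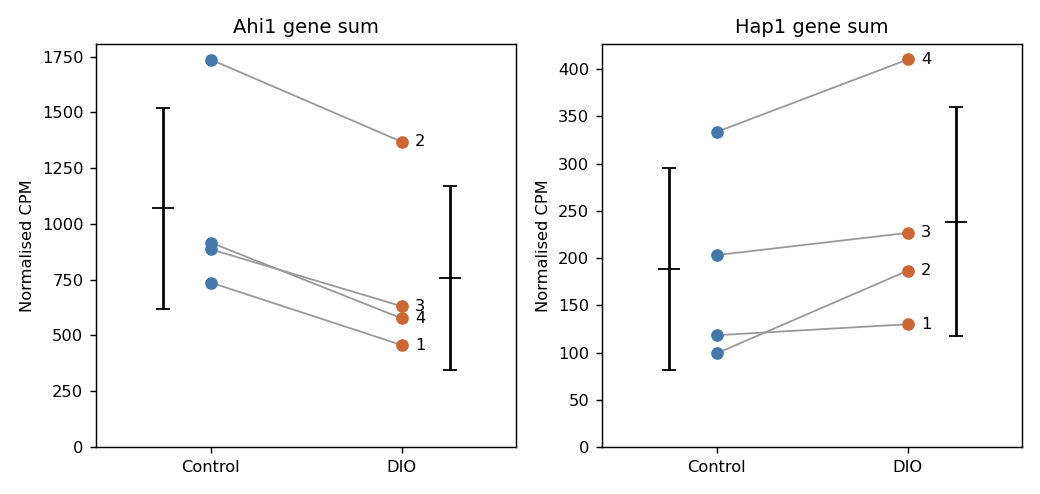
Gene sums of Ahi1 and Hap1 in normalised CPM for 4 control and 4 DIO libraries, with lines joining libraries of the same number and bars for the mean ± SD. All 4 lines fall for Ahi1 and all 4 rise for Hap1, while the spread within each group exceeds the shift between the means.

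Neither gene sum passed the test between diets that leaves the numbers aside. The log2 fold change of DIO over control was -0.50 ± 0.35 (SE) for Ahi1 (adjusted p = 0.942) and 0.34 ± 0.41 for Hap1 (adjusted p = 0.979), by edgeR's quasi-likelihood test with Benjamini-Hochberg adjustment over 12255 genes. In that fit 0 genes (0%) had an adjusted p under 0.1, and 627 had an unadjusted p under 0.05. DESeq2 called 4 genes, none of them a member, with adjusted p = 0.944 for Ahi1 and 0.990 for Hap1.

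With the library number as a replicate block, Ahi1 was lower in DIO animals, with a log2 fold change of -0.55 ± 0.13 (adjusted p = 0.0895, edgeR), 1 of 27 genes called lower, which is 0.22% of the genes tested. Hap1 had 0.37 ± 0.17 in the blocked fit (adjusted p = 0.401). The blocked call of Ahi1 was near the threshold of 0.1. It was lost with low-count genes removed (adjusted p = 0.116), with DESeq2 size factors (0.108), and without both libraries numbered 1, 3 or 4 (0.247, 0.368 and 0.622), whereas it reached 0.00786 without both libraries numbered 2. The log2 fold change stayed between -0.62 and -0.49 in all of these fits. These variants of the blocked fit were chosen after the data were seen, and the share of all genes called in them is not given here. Pair 2 had the smallest Ahi1 difference, at -0.34 on the log2 scale against -0.49 to -0.69 in the other pairs. Leaving that pair out favours the call, so the lower p is no evidence of a difference.

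Most of the spread of both genes followed the library number. On log2 CPM, the number took up 77.8% of the sum of squares of Ahi1 and 86.7% of that of Hap1, against a median of 52.6% over all genes. The diet took up 20.8% for Ahi1 and 7.82% for Hap1, against a median of 9.07%. What a number stands for is not stated in the labels.

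Single libraries therefore decided the size of the unblocked difference. Without control 2 the Ahi1 log2 fold change was -0.16 and without DIO 2 it was -0.95. For Hap1 it was 0.77 without control 4 and 0.13 without control 2, and it turned to -0.04 without DIO 4. None of the fits that left out 1 library brought either gene under the threshold. The plot of fold changes sets these values side by side.

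**Figure D2:**
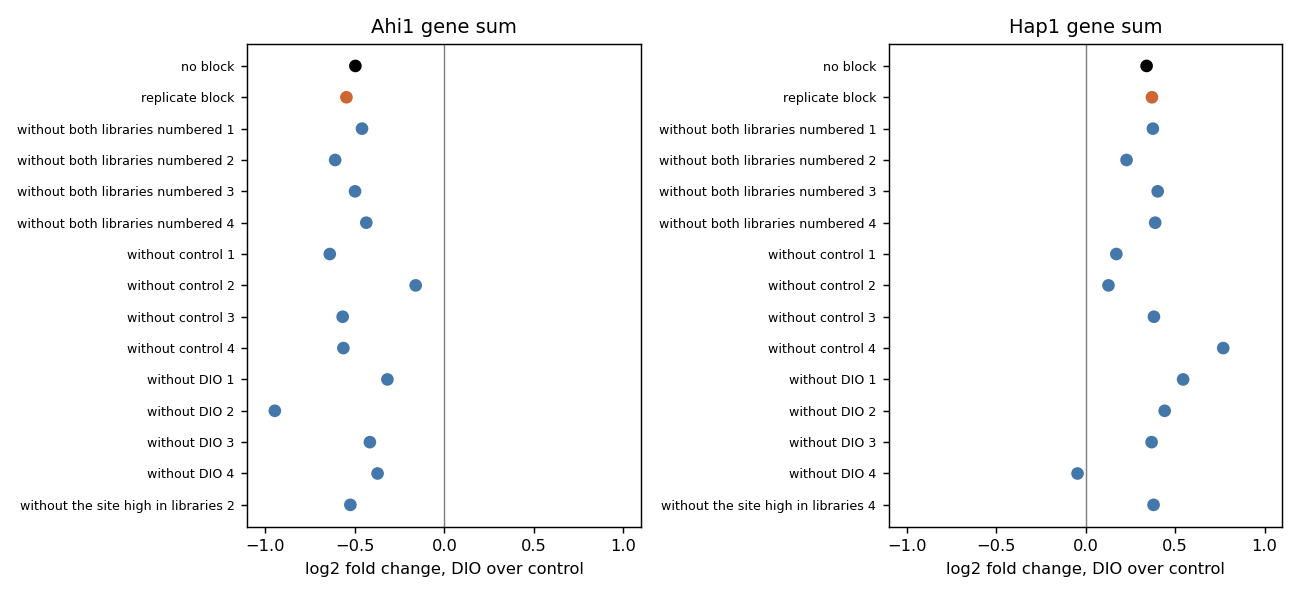
Log2 fold change (DIO over control) of the Ahi1 and Hap1 gene sums in the fit without a replicate block (black), with it (orange), and with libraries or a site left out (blue). Every Ahi1 point lies under 0, from -0.95 to -0.16, and the Hap1 points run from -0.04 to 0.77.

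Site 2 of Ahi1, with its peak at 16478288, was the most used. It had 640, 869, 643 and 634 reads in control libraries 1 to 4 and 224, 637, 698 and 341 in DIO libraries 1 to 4, which is 46.2% of all Ahi1 reads. In CPM these were 437 ± 61.8 in control and 278 ± 145 in DIO animals (SD, n = 4 each). DIO 1 and DIO 4 were far below all controls at 127 and 191 CPM, DIO 3 at 353 CPM was just below the lowest control at 360 CPM, and DIO 2 lay within the controls.

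Site 3, the next one at 16478383, had 140, 277, 130 and 183 reads in control libraries 1 to 4 and 92, 169, 94 and 81 in DIO libraries 1 to 4. Its mean was 114 ± 35.0 CPM in control and 65.5 ± 34.5 CPM in DIO animals, and the groups overlapped through DIO 2 alone. Site 1, the most 5′ at 16478125, was small, with 8, 14, 12 and 21 control reads and 4, 9, 6 and 21 DIO reads. In CPM sites 1, 2 and 3 were each lower in the DIO library in 4 of 4 pairs.

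Site 6 of Ahi1, at chr1:16481046-16481134, had another pattern. Its peak is at 16481092 and it had 146, 1239, 133 and 151 reads in control libraries 1 to 4 and 150, 748, 143 and 108 in DIO libraries 1 to 4. Both libraries numbered 2 stood above the other 6, at 713 CPM in control 2 and 518 CPM in DIO 2 against 60.5 to 99.5 CPM, and the other libraries of the 2 groups overlapped. Site 6 gave 47.7% of Ahi1 reads in control 2 (95% Wilson interval 45.8 to 49.6) and 44.4% in DIO 2 (42.0 to 46.8), while in the remaining 6 libraries the share was 12.2% to 24.7%. Intervals cover counting error only, since amplified reads are not independent molecules.

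With site 6 left out, the Ahi1 sum was 634, 909, 779 and 802 CPM in control libraries 1 to 4 and 344, 761, 547 and 503 in DIO libraries 1 to 4. Library 2 remained the highest of each group, by a smaller margin. The log2 fold change was -0.52 ± 0.22 (unadjusted p = 0.0305, adjusted p = 0.916, edgeR), of much the same size as with the site and with a smaller error. Site 6 was picked from these counts for its excess in the libraries numbered 2, so the smaller error and p follow from that choice. With all sites in the sums, 5.12% of all genes had an unadjusted p under 0.05. With site 6 left out and the replicate block, the Ahi1 log2 fold change was -0.57 (adjusted p = 0.105, edgeR).

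The most 3′ Ahi1 site, number 20 at 16543075, had 0, 25, 14 and 20 reads in control libraries 1 to 4 and 17, 20, 23 and 41 in DIO libraries 1 to 4. As a share of Ahi1 reads it was 0%, 0.963%, 1.28% and 1.66% in control and 2.80%, 1.19%, 2.14% and 4.84% in DIO libraries. Its 0 of 1041 reads in control 1 allow a share of up to 0.288% by counting error alone. Control 1 had 0 reads at 14788 of all sites in the table, DIO 1 at 10659 and the others at 4062 to 6622. Of the 20 Ahi1 sites, 13 had reads in control 1 and 17 to 20 in the others. The part of this loss in the value of control 1 was not tested. The share of site 20 was higher in DIO in 4 of 4 pairs, but DIO 2 lay within the controls. Flipping the signs of the pair differences gave a 2-sided exact p of 0.125, the smallest that 4 pairs allow. The difference of the means was 1.76 percentage points (2-sided exact permutation p = 0.0857, 0.171 after adjustment over the 2 genes), where 70 arrangements allow no p below 0.0286. Without DIO 4 it was 1.06 points (exact permutation p = 0.171). Without DIO 2, the only DIO library within the controls, it was 2.28 points (exact permutation p = 0.0286, not adjusted over the 2 genes). Removing the overlapping library leaves the groups fully apart. That p is then the smallest possible for the remaining libraries and is no evidence of a difference.

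The other 15 Ahi1 sites held 30 to 470 reads each. Site 10, at 16502026, was the largest of them and was chosen after its values were seen. It had 7, 27, 89 and 123 reads in control libraries 1 to 4 and 26, 26, 12 and 160 in DIO libraries 1 to 4. High and low libraries occurred in both groups, from 0.672% of Ahi1 reads in control 1 to 18.9% in DIO 4.

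**Figure D3:**
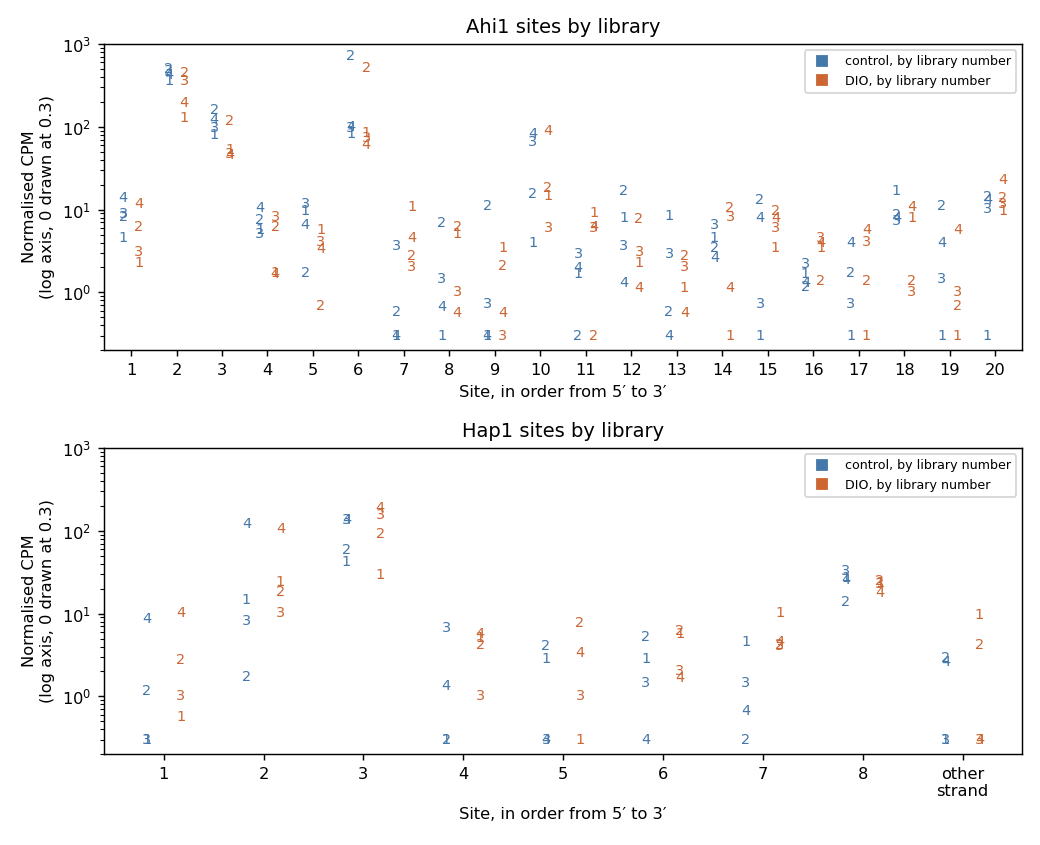
Normalised CPM on a log axis of each Ahi1 and Hap1 site in order from 5′ to 3′, with each digit standing for the library of that number, blue for control and orange for DIO. A value of 0 is drawn at 0.3, and at Ahi1 site 6 both digits 2 (713 and 518 CPM) and at Hap1 site 2 both digits 4 (120 and 105 CPM) stand apart.

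The leading Hap1 site was number 3, with its peak at 88260040 and 57.9% of the reads. It had 75, 103, 182 and 202 reads in control libraries 1 to 4 and 51, 132, 304 and 339 in DIO libraries 1 to 4. Libraries 1 and 2 were low and libraries 3 and 4 high in both groups. The number took up 92.5% of its sum of squares, against a median of 54.4% over all sites. Means were 92.0 ± 48.2 CPM in control and 116 ± 71.0 CPM in DIO animals (SD, n = 4 each).

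Site 2 of Hap1 lay upstream, with its peak at 88264102. It had 26, 3, 11 and 182 reads in control libraries 1 to 4 and 43, 26, 20 and 187 in DIO libraries 1 to 4. Both libraries numbered 4 stood above the other 6, at 120 CPM in control 4 and 105 CPM in DIO 4 against 1.73 to 24.3 CPM. It made up 41.5% of Hap1 reads in control 4 (95% Wilson interval 36.9 to 46.1) and 31.0% in DIO 4 (27.5 to 34.8), and 2.03% to 24.9% in the other 6 libraries. Its neighbour, site 1 at 88264781, was the most 5′ and had 0, 2, 0 and 13 control reads and 1, 4, 2 and 18 DIO reads, also with the libraries numbered 4 on top. Leaving site 2 out moved the Hap1 log2 fold change only from 0.34 to 0.38 (adjusted p = 0.946, edgeR).

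The most 3′ Hap1 site, number 8 at 88257972, was the steadiest. It had 48, 24, 44 and 39 reads in control libraries 1 to 4 and 41, 36, 45 and 32 in DIO libraries 1 to 4, or 24.7 ± 7.81 and 22.2 ± 3.0 CPM. Its share of Hap1 reads was 28.7%, 16.2%, 17.6% and 8.88% in control and 23.7%, 15.7%, 11.6% and 5.31% in DIO libraries. The share was lower in DIO in 4 of 4 pairs (2-sided exact sign-flip p = 0.125, the smallest that 4 pairs allow). The mean difference was -3.79 percentage points, smaller than the SD within either group (2-sided exact permutation p = 0.543, also 0.543 after adjustment over the 2 genes). Single libraries decided its size, which was -0.16 points without control 1, -0.87 without DIO 4, -6.78 without control 4 and -7.00 without DIO 1. The remaining 4 Hap1 sites had 31 to 51 reads each.

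**Figure D4:**
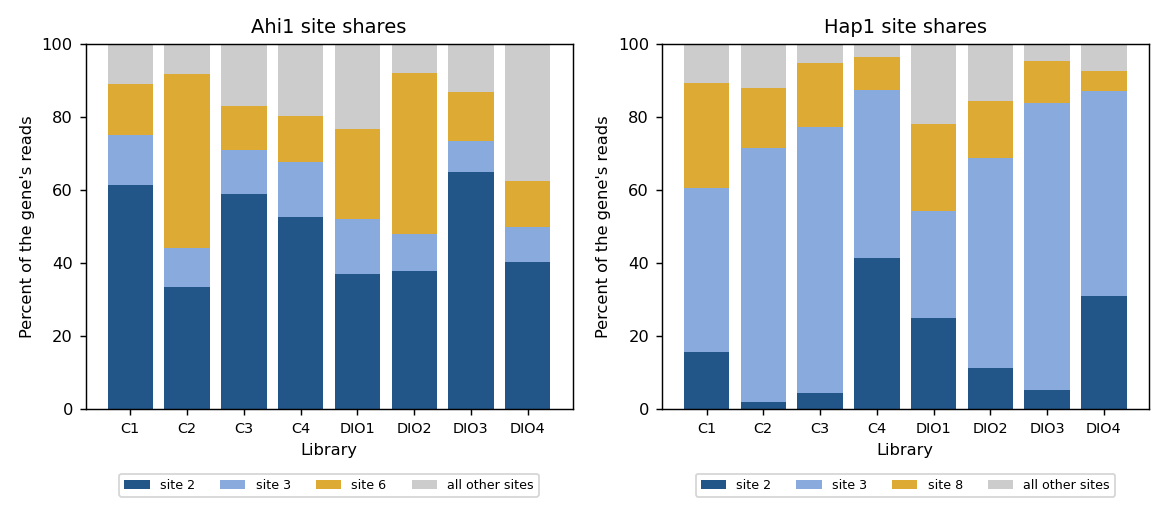
Share of the reads of Ahi1 (left) and Hap1 (right) at each site with at least 5% of them, in percent, for control (C) and DIO libraries 1 to 4. Ahi1 site 6 is widest in C2 (47.7%) and DIO2 (44.4%), and Hap1 site 2 in C4 (41.5%) and DIO4 (31.0%).

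Of the 29 sites, 0 had an adjusted p under 0.1 between diets without the block (0.00135% of all sites did) or with it (0.00541%). None had an unadjusted p under 0.05 without the block, where 3.14% of all sites did. With 1 library left out this count rose to 4 for Ahi1 without DIO 2 and to 1 without control 1 or control 3. For Hap1 it rose to 1 without control 1 or control 4. The share of all sites in these smaller fits is not given here, so these counts cannot be set against a background. With all 8 libraries and no block, the lowest unadjusted p was that of Ahi1 site 3, with a log2 fold change of -0.79 ± 0.38 (unadjusted p = 0.057, adjusted p = 1, edgeR). The DESeq2 Wald test gave no adjusted p for 19 of the 29 sites and called 0 of the others. At 0 of the 29 sites were the groups free of overlap, against 3.11% of all sites. In the blocked fit 3 member sites had an unadjusted p under 0.05, as did 6.09% of all sites. They were Ahi1 site 2, with -0.80 ± 0.22 (adjusted p = 0.341), Ahi1 site 3, with -0.86 ± 0.26 (adjusted p = 0.441), and Hap1 site 7 at 88258874, with 2.09 ± 0.98 (adjusted p = 0.791, all edgeR). The last had 8, 0, 2 and 1 reads in control libraries 1 to 4 and 18, 6, 8 and 8 in DIO libraries 1 to 4, so it was higher in DIO in 4 of 4 pairs on few reads.

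The use of sites within a gene was compared as well, which asks whether any site changed differently from the rest of its gene. Neither gene passed, with a Simes p of 0.793 for Ahi1 and 0.940 for Hap1 (both adjusted p = 1, diffSpliceDGE of edgeR). Of the 7996 genes tested, 0 (0%) passed, and 109 had an unadjusted p under 0.05. The blocked Simes p was 0.150 for Ahi1 and 0.634 for Hap1.

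A site with both libraries of 1 number more than 4-fold above each of the other 6 was not rare. Among the 38892 sites that reached 10 CPM in any library, 686 (1.76%) were of this kind, 252 for number 2 and 271 for number 4. Of the 20 member sites that reached this level, 2 were, namely Ahi1 site 6 and Hap1 site 2, both already described. The part of preparation, tissue or animals in this pattern was not tested.

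Across the 8 libraries the levels of Ahi1 and Hap1 did not move together. Pearson's r of log2 CPM was -0.31 (exact permutation p = 0.454) and Spearman's rho was -0.33 (exact permutation p = 0.428), 1 relation being tested. Without DIO 1 and control 2, which lay farthest from the Ahi1 median, r was -0.30 (exact permutation p = 0.571, n = 6), and after subtraction of each group's mean it was -0.21 (exact permutation p = 0.625). Libraries of 1 number resembled each other, so the 8 points are not independent of each other.

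Counted from the highest r with Ahi1, Hap1 ranked 5993 of 8301 genes, and by r with Hap1, Ahi1 ranked 6217. The genes named next were picked as the highest of all these, so a high r was built into the choice. Of 8301 genes with at least 10 CPM on average, Bclaf1, a factor of RNA processing whose nearest site lay 649 kb from Ahi1 on chromosome 1, had the highest r with Ahi1 (0.98), followed by Ahcyl1 (0.97), a regulator of inositol trisphosphate receptors, and Luzp1 (0.97), a leucine zipper protein of the actin skeleton and centrosome. All 3 had both libraries numbered 2 above the other 6, at 472 and 388 CPM for Bclaf1, 145 and 123 for Ahcyl1, and 244 and 188 for Luzp1. For Hap1 they were the GTP-binding protein gene Gtpbp1 (0.96), the histone demethylase family gene Phf2 (0.96) and Ide (0.95), which encodes insulin-degrading enzyme. In these, both libraries numbered 4 were the highest, at 43.3 and 49.0 CPM for Gtpbp1, 60.0 and 67.4 for Phf2, and 35.0 and 88.5 for Ide. These likenesses rest on 8 libraries that share their numbers, and are given as a description.

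The cilium genes that work beside Ahi1 were taken as a list of 24 transition zone and Joubert genes, of which 19 were measured. Of all 12255 genes, 0 passed the adjusted threshold without the block, and 7 higher and 27 lower passed with it. No list member did so in either direction, with or without the block. The median log2 fold change of the list was 0.26, with 15 higher and 4 lower, against 0.00 over all genes, with 6134 higher and 6121 lower. Between libraries of the same group the median log2 CPM of the list had an SD of 0.335, more than this shift. The list genes share the same libraries, so their directions are not independent of each other. Without the block Cep290, a large protein of the transition zone, was the only one with an unadjusted p under 0.05, where 5.12% of all genes were. With the block 3 were, Cep290, Inpp5e and Tctn2, where 10.9% of all genes were. The last 2, named after their values were seen, were higher in DIO in 4 of 4 pairs, on few reads. Inpp5e had 129 reads over all libraries, 2 of them in control 1 (blocked adjusted p = 0.394, edgeR). Tctn2 had 192 reads over all libraries (blocked adjusted p = 0.445, edgeR). Cep290 measured 38.1 ± 9.14 CPM in control and 63.3 ± 26.7 CPM in DIO animals (SD, n = 4 each), a log2 fold change of 0.73 ± 0.33 (adjusted p = 0.921, edgeR). DIO 1, at 101 CPM, carried much of this, and without it the log2 fold change was 0.42. The most abundant members were Cspp1, a centrosome and spindle pole protein, at 177 ± 30.0 and 213 ± 23.4 CPM, and Arl13b, the small GTPase of the ciliary membrane, at 58.1 ± 17.9 and 69.6 ± 17.1 CPM.

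Cargo, motor and signalling partners of the 2 proteins formed a list of 21 genes, 19 of them measured. Again 0 passed the adjusted threshold in either fit. Over all genes 0 did without the block, and 7 higher and 27 lower with it. The list median was 0.02, with 10 higher and 9 lower. Without the block Kif5b, a kinesin heavy chain, was the only list member with an unadjusted p under 0.05, where 5.12% of all genes were. With the block there were 3, Kif5b, Dctn1 and Bdnf, where 10.9% of all genes were. Bdnf was near the floor, with 6, 3, 8 and 17 reads in control libraries 1 to 4 and 0, 0, 13 and 0 in DIO libraries 1 to 4. Its blocked log2 fold change was -2.80 ± 1.32 (adjusted p = 0.438, edgeR). Kif5b had 339 ± 40.5 CPM in control and 236 ± 37.1 CPM in DIO animals, a log2 fold change of -0.52 ± 0.20 (adjusted p = 0.921, edgeR), lower in 4 of 4 pairs, and the other 2 kinesin heavy chains Kif5a and Kif5c had 0.11 ± 0.30 and 0.13 ± 0.27. Dctn1, the dynactin subunit that Hap1 binds, had 736 ± 163 and 586 ± 208 CPM and was also lower in 4 of 4 pairs (blocked log2 fold change -0.37 ± 0.14, adjusted p = 0.285, edgeR). Ntrk2, the BDNF receptor whose trafficking Hap1 and Ahi1 take part in, was the most abundant at 1059 ± 141 and 1043 ± 128 CPM, and Kalrn, a guanine nucleotide exchange factor that binds Hap1, had 382 ± 20.7 and 469 ± 58.0 CPM. Htt, the gene of huntingtin, had 22.0, 45.5, 72.3 and 39.5 CPM in control libraries 1 to 4 and 17.3, 29.2, 252 and 32.0 CPM in DIO libraries 1 to 4. DIO 3 alone raised its DIO mean, and the DIO library was the higher in 1 of 4 pairs. Bdnf, Kif5a, Kif5c and Htt were named after their values had been seen. The plot of partner genes gives every measured member.

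**Figure D5:**
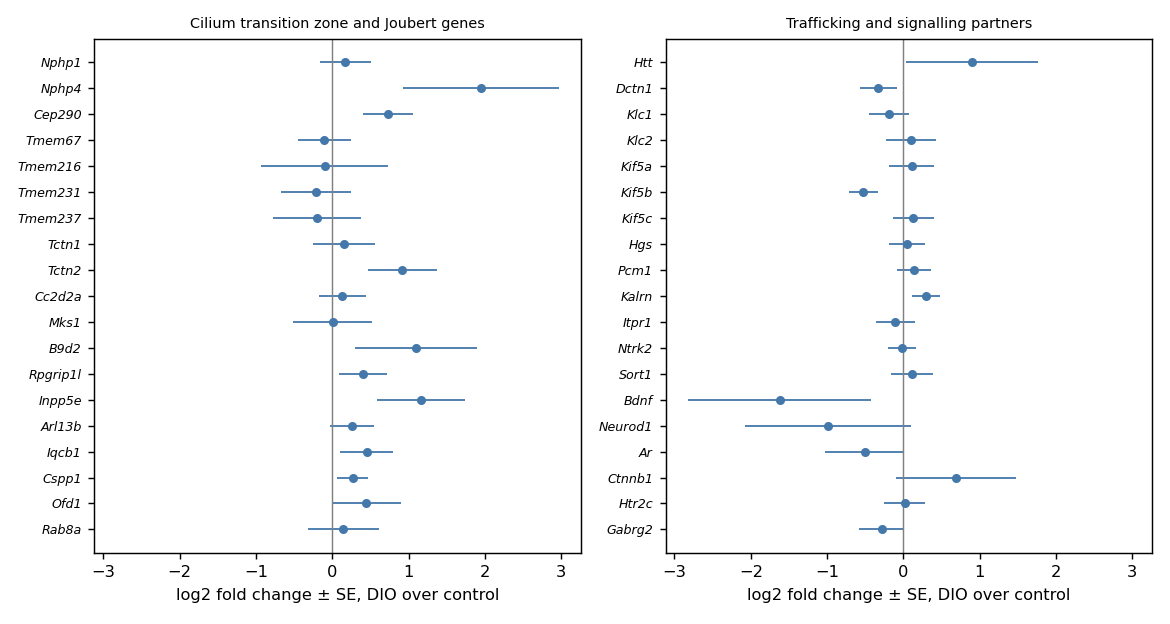
Log2 fold change ± SE (DIO over control, no replicate block) of the 19 measured genes of each partner list. Points lie on both sides of 0, and Cep290 (0.73) and Kif5b (-0.52) are those with an unadjusted p under 0.05.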

How the data were processed

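WTTS-seq of total RNA from the hypothalami of 8 rats gave 8 libraries. For each polyadenylation site the authors deposited whole-number read counts, with no normalization. The submitters' processing notes name Bowtie2 2.2.3 and build Rnor_6.0, and how reads were clustered into sites is not given in the sources used here. No site had fewer than 30 reads in all, so a cutoff came before the table. One line without a site, holding 1710888 reads as the total of control 1, was left out.

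Counts were tested with edgeR 4.0.16 in R 4.3.3 (TMM scaling, robust quasi-likelihood fit), with Benjamini-Hochberg adjustment over all sites or genes and a threshold of 0.1. DESeq2 1.42.0 was an alternative. Gene sums were taken over sites on the strand with most reads. Site and gene CPM were scaled separately. Same-numbered libraries deviated together (correlation 0.268 to 0.382 for the 4 pairs, -0.200 to -0.039 for the other 12), so the number served as a block. The labels do not say what libraries of 1 number share. The tests without the block were checked on simulated counts, with planted changes larger than that of Ahi1 and no effect of the library number. The blocked fits were not checked in this way.

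The members, lists and tests were chosen with earlier results of these data known. Sites were named where they held at least 5% of a gene's reads, were the most 5′ or most 3′, lay on the other strand or had an unadjusted p under 0.05. List members were named for that p or as the 3 most abundant, and the 3 genes of highest r were named for each member.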

Additional observations from a re-analysis of the deposited data

Results flagged for a closer look

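Of 94 groups of 4 libraries checked, 15 held a library far from the other 3 by Dixon's criterion, where chance alone flags about 1 in 20. At Ahi1 sites in CPM, control 2 had 713 at 16481092 (others 82.2 to 99.5) and DIO 2 had 518 (60.5 to 84.9). DIO 2 also had 117 at 16478383 (45.4 to 52.1). DIO 4 had 89.7 at 16502026 (6.07 to 18.0). Control 2 had 10.9 at 16496456 (0 to 0.734), control 3 had 3.67 at 16481613 (0 to 0.575) and control 1 had 16.9 at 16537191 (7.34 to 8.63). At Hap1 sites in CPM, control 4 had 120 at 88264102 (1.73 to 14.6) and 8.56 at 88264781 (0 to 1.15). DIO 4 had 105 at 88264102 (10.1 to 24.3), and DIO 1 had 10.2 at 88258874 (4.05 to 4.48). As a percent of Ahi1 reads, control 2 had 47.7 at 16481092 (12.2 to 14.0), DIO 3 had 64.8 at 16478288 (36.8 to 40.3) and DIO 4 had 2.48 at 16478125 (0.534 to 0.658). The gene sum of Cspp1 was 221 CPM in control 2 (159 to 167).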

How the results depend on the processing

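The Ahi1 gene sum crossed it with the replicate block (log2 fold change -0.547, adjusted p = 0.0895, edgeR) and in the blocked fit without both libraries numbered 2 (-0.617, adjusted p = 0.00786). That fit, the other blocked variants and the fits without a site or without both libraries of 1 number were chosen after seeing the data. Over all its alternatives the Ahi1 log2 fold change kept its direction, from -0.947 to -0.16. Leaving out 1 library each moved the Hap1 gene sum from -0.0448 (without DIO 4) to 0.769 (without control 4). The difference in the Ahi1 most 3′ share ran from 1.06 (without DIO 4) to 2.28 points (without DIO 2). The latter passed 0.05 because the library that overlapped the controls was the one removed, so it is no evidence. The difference in the Hap1 most 3′ share ran from -7.00 (without DIO 1) to -0.162 points (without control 1). Member sites with an unadjusted p under 0.05, 0 for both genes as reported, numbered 0 to 4 for Ahi1 and 0 to 1 for Hap1 over the alternatives. For the fits with libraries left out, the share of all sites is not given here. Single sites that reversed when 1 library was left out spanned -1.77 to 0.987 at Ahi1 16481092, -1.04 to 2.24 at Hap1 88264102, -0.736 to 2.95 at 88264781, -0.00802 to 0.642 at 88260040, -0.354 to 0.00648 at 88257972 and -0.0651 to 1.92 at 88262933, and Ntrk2 spanned -0.0735 to 0.0734. The cause of these shifts was not tested. Site usage, the counts of sites and list genes with an adjusted p under 0.1, and the correlation kept their side of the threshold under every alternative run, and the replicate block changed no other call. Depth limits the sites with 30 to 100 reads, a few per library. Sites next to A-rich sequence were not removed.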
